A study of Mus musculus with 2 samples.

Results

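The p53 pathway and target genes are a list of 41 genes, matched by symbol to the 45318 genes of the deposited count table, and all 41 were found. The cells were bone marrow blasts of an MLL/AF9 leukaemia, driven by a fusion gene found in human acute myeloid leukaemia, in mice of strain C57Bl/6. The mice had received vehicle or brequinar, which blocks dihydroorotate dehydrogenase and so the supply of newly made pyrimidines. GFP-positive cells were sorted, and their poly(A)-selected RNA was sequenced. There were 2 libraries, 1 per treatment. Differences between treatments therefore could not be checked against replicates, and no p-value is given. The sources used here do not give the dose, the duration of treatment, the age of the mice, or how many animals and leukaemias went into a library. Both groups share the oncogene, the GFP marker and the sort. The comparison asked how expression in leukaemia cells differed between a brequinar-treated and a vehicle-treated marrow.

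The protein p53, encoded by Trp53, is a transcription factor that is held low by the ubiquitin ligase Mdm2 and by Mdm4, and that is stabilised by DNA damage, by nucleotide shortage and by disturbed ribosome assembly. It then activates genes that stop the cell cycle, start cell death, repair DNA and adjust metabolism, together with genes such as Mdm2 and Ppm1d that shut it off again. In MLL-rearranged leukaemia the gene is usually not mutated. Control of p53 is largely at the level of the protein, which was not measured here.

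The vehicle library held 47935476 gene counts and the brequinar library 47950714. Levels are given as CPM, counts scaled to library size after TMM adjustment, and a single count was worth 0.0202 CPM in the vehicle and 0.0215 CPM in the brequinar library. A gene was taken as measured where its mean of both libraries reached 1 CPM, and as higher or lower at 2-fold or more on the log2 ratio of brequinar over vehicle with a prior count of 2. The intervals printed with fold values are exact, at 95%, and hold counting error alone. Amplified reads carry no molecular identifier and are not independent, so these intervals can be too narrow.

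Several p53 target genes had higher levels in the brequinar library, among them Cdkn1a and Ccng1 of the cell cycle and Bax, Fas and Trp53inp1 of cell death. None of the 5 DNA repair members was past 2-fold, which is near the shares of all measured genes given below. Of 37 measured members, 17 were at least 2-fold higher and none was at least 2-fold lower. Among all 11504 measured genes, 6.45% were at least 2-fold higher and 4.40% at least 2-fold lower. The median log2 ratio was 0.69 over the measured members and 0.00 over all measured genes. The whole counting interval lay beyond 2-fold for 14 members, against 5.22% of all measured genes on the higher side. In bulk RNA, a different share of cells of one type and a different amount of RNA per cell cannot be told apart.

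**Figure D1:**
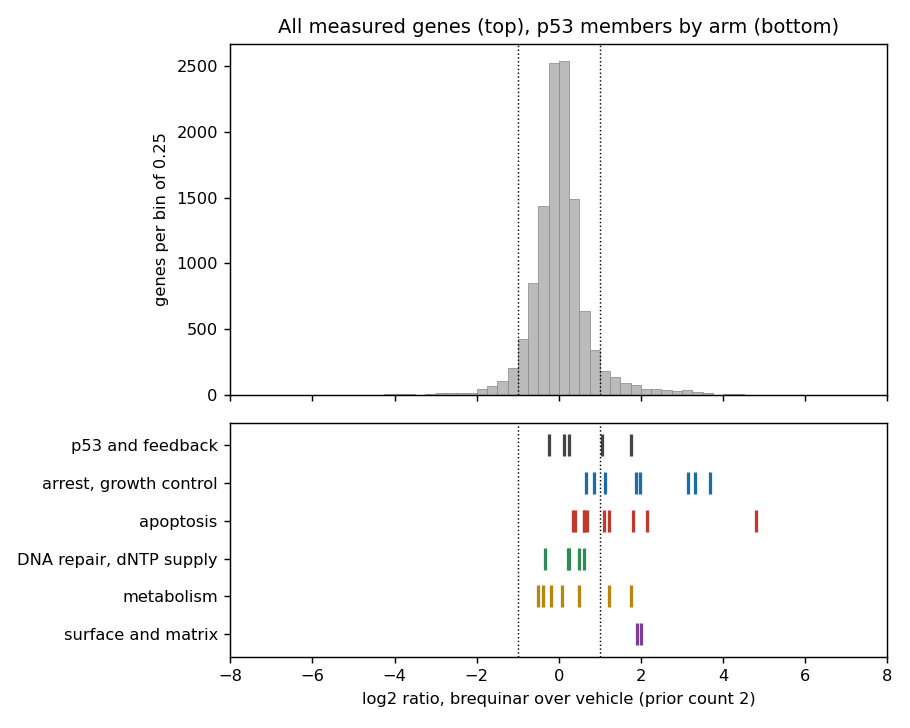
The upper panel counts the 11504 measured genes by log2 ratio of brequinar over vehicle, in bins of 0.25, and the lower panel marks each of the 37 measured p53 members by arm; dotted lines stand at 2-fold. All genes centre on a median of 0.00, while the arrest and surface marks all lie at or above 0.66 and the repair marks between -0.32 and 0.60.

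The filter bears on this count. Phlda3, Plk2, Trp53cor1 and Pvt1 stood under 1 CPM in the vehicle library and passed the filter through the brequinar library alone, so they had to differ. All 4 are also among the 14 members whose whole counting interval lay beyond 2-fold, so that count rests in part on the filter. Among the other 33 measured members 13 were at least 2-fold higher and the median log2 ratio was 0.61, while 4.81% of the 11248 measured genes with at least 1 CPM in the vehicle library were. The remaining 4 of the 41 members, Gdf15, Eda2r, Perp and Sulf2, stayed under the filter.

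The 41 members together held 1402 CPM in the vehicle library and 2535 CPM in the brequinar library, 1.81-fold more. Cdkn1a and Ccng1 alone made 592 CPM of this difference of 1132 CPM. The other members summed to 1256 and 1797 CPM, which is 1.43-fold more. Levels in the vehicle library enter the ratio and the filter, so the levels of the higher members are given as a description. The 17 higher members had a median of 5.86 CPM in the vehicle library (range 0.364 to 121), and the 20 members within 2-fold had a median of 25.1 CPM there (range 1.64 to 274). In the brequinar library the medians were 18.5 and 29.3 CPM.

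**Figure D2:**
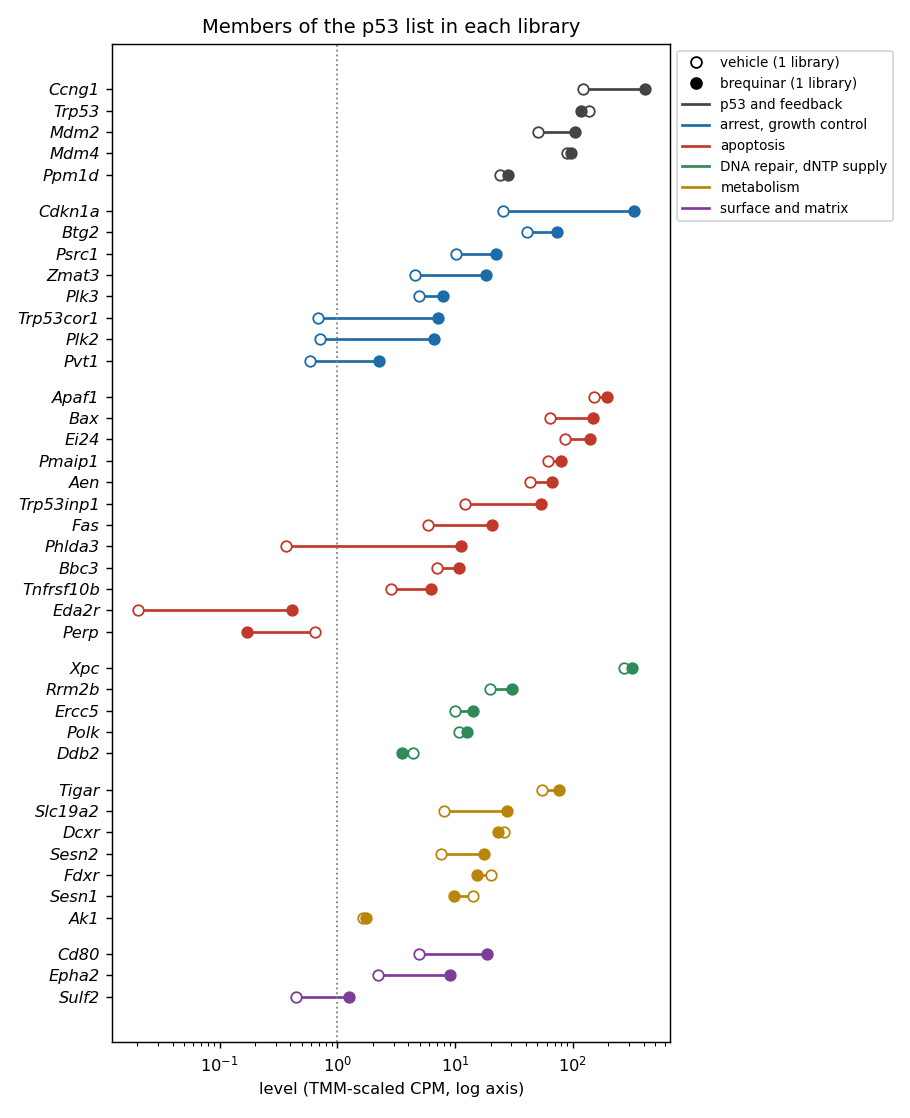
Levels of 40 members in TMM-scaled CPM on a log axis, grouped by arm, with open circles for the vehicle library and filled circles for the brequinar library; Gdf15, with 0 counts in the vehicle library, is left out, and the dotted line marks 1 CPM. Cdkn1a stands at 25.5 and 330 CPM and Phlda3 at 0.364 and 11.2 CPM, while Xpc stands at 274 and 319 CPM.

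Promoter sequences were read for the members because p53 acts by binding DNA. The RefSeq promoter table (GRCm38.p6) held windows of 300 bases, from 250 before to 50 after a start site, for 31 of the 41 members. Each window was searched for the p53 half-site of 10 bases, which is 3 purines, a C, 2 bases that are each A or T, a G and 3 pyrimidines, and which reads the same pattern on both strands. Of these 31 members 10 held an exact half-site, against 9.55% of all 27025 genes in the table. They were Cdkn1a, Ccng1, Mdm2, Bax, Trp53, Ppm1d, Aen, Ei24, Sesn1 and Polk. A full site, meaning 2 abutting half-sites with at most 2 mismatches over 20 bases, was found in the windows of Cdkn1a, Ccng1 and Cd80 and in 0.9399% of all genes. Of the 12 higher members with a window, 4 held a half-site, and of the 16 members within 2-fold that had a window, 6 did. A full site was held by 3 of those 12 and by 0 of those 16, and this difference was not tested. A match is a description of letters, and many p53 sites lie outside such windows.

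The stretches below are shown because they hold the matches of the higher members Cdkn1a, Ccng1, Mdm2, Cd80 and Bax, beside that of Trp53 itself, which was not higher. They run 5′ to 3′ on the gene's strand, end before the start site, and carry the matched bases in capitals. They lie at chr17:29090866-29090978 (plus) for Cdkn1a, chr11:40755422-40755521 (minus) for Ccng1, chr10:117710895-117710984 (minus) for Mdm2, chr16:38458782-38458881 (plus) for Cd80, chr7:45467050-45467139 (minus) for Bax and chr11:69580244-69580333 (plus) for Trp53.
Cdkn1a: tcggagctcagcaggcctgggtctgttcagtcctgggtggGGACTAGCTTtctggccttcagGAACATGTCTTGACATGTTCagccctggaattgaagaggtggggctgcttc
Ccng1: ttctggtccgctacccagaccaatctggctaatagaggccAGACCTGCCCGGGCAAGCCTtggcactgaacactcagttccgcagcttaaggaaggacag
Mdm2: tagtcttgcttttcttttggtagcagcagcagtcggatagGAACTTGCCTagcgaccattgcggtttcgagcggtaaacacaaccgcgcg
Cd80: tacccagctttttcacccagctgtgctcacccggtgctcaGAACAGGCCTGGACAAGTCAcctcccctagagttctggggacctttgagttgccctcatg
Bax: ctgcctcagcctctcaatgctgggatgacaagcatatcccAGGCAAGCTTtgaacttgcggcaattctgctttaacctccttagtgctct
Trp53: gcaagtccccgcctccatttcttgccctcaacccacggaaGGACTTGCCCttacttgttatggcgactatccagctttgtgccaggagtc
The Cdkn1a stretch precedes the more upstream of its 2 start sites in the table, and its matches lie 73 to 32 bases before that start. It holds a half-site and, after a gap, a full site with 1 mismatch. The Ccng1 full site, 195 to 176 bases before the start, has 1 mismatch, and that of Cd80, 111 to 92 bases before the start, has 2. Mdm2, Bax and Trp53 hold a single half-site each. Ppm1d, Aen, Ei24, Sesn1 and Polk, which lay within 2-fold, also hold half-sites, and their stretches are not shown.

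The first arm is p53 with its feedback genes. Trp53 (ENSMUSG00000059552.10; chr11:69580359-69591873, plus strand) stood at 137 CPM in the vehicle and 116 CPM in the brequinar library. Its mRNA was thus 1.18-fold lower in the brequinar library (interval 1.14 to 1.23), well within 2-fold. Mdm2, the ligase that degrades p53 and is also its target (chr10:117688875-117710758, minus strand), stood at 50.3 and 105 CPM, 2.09-fold higher (interval 1.986 to 2.189). Its counting interval reaches below 2-fold, and with scaling by total counts its log2 ratio was 0.97, under the threshold. Per kilobase of exon, Mdm2 mRNA was 0.291 times the Trp53 mRNA in the vehicle library and 0.718 times in the brequinar library. Mdm4, a relative of Mdm2 that masks the activation domain of p53, stood at 88.7 and 97.0 CPM. Ppm1d, a phosphatase that reverses p53 phosphorylation, stood at 24.0 and 28.3 CPM, 1.18-fold higher (interval 1.09 to 1.28). Ccng1, which encodes cyclin G1, a recruiter of a phosphatase to Mdm2, was the clearest of the arm at 121 and 408 CPM. It was 3.38-fold higher (interval 3.29 to 3.48) and had the highest level per kilobase of all members in the brequinar library (116 CPM per kilobase). In this arm 2 of 5 members were at least 2-fold higher, against 6.45% of all measured genes, and the median log2 ratio was 0.24.

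Of 8 measured genes of arrest and growth control, 6 were at least 2-fold higher, with a median log2 ratio of 1.93 and none below 0. Plk2, Trp53cor1 and Pvt1 of these passed the filter through the brequinar library alone, and without them 3 of 5 were higher, with a median of 1.13. The share of all measured genes was 6.45%, and 4.81% among those of at least 1 CPM in the vehicle library. Cdkn1a, which encodes the cyclin-dependent kinase inhibitor p21 (chr17:29090976-29100727, plus strand), had 1261 counts in the vehicle and 15310 in the brequinar library, or 25.5 and 330 CPM. It was 12.9-fold higher (interval 12.2 to 13.7) and ranked 36 from the top of 11504 measured genes by log2 ratio. Per kilobase it was in place 14 of the 41 members in the vehicle library and in place 3 in the brequinar library, behind Ccng1 and Bax. Trp53cor1, the long noncoding RNA known as lincRNA-p21, lies 11796 bases from Cdkn1a. It stood at 0.687 and 7.21 CPM, 10.5-fold higher (interval 7.36 to 15.4).

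Plk2 and Plk3 encode polo-like kinases that respond to stress, and they differed in size. Plk2 stood at 0.707 and 6.63 CPM, 9.37-fold higher (interval 6.60 to 13.7). Plk3 stood at 4.95 and 7.86 CPM, within 2-fold. Zmat3, a zinc finger protein that binds RNA and regulates splicing, stood at 4.61 and 18.3 CPM, 3.97-fold higher (interval 3.42 to 4.61). Psrc1, a microtubule-associated protein, stood at 10.2 and 22.5 CPM and was past 2-fold with an interval that reached below it. Pvt1, a long noncoding RNA beside Myc, stood at 0.586 and 2.26 CPM. Btg2, an antiproliferative protein that promotes mRNA deadenylation, stood at 40.9 and 73.6 CPM, short of 2-fold. Gdf15, a secreted stress cytokine, had 0 counts in the vehicle library, which allows up to 0.0606 CPM (3 counts), and 4 counts in the brequinar library, so no fold is given.

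The measured cell death genes had log2 ratios graded from 0.36 to 4.80, and the 2-fold rule cuts through this run. Of 10 measured members 5 were at least 2-fold higher, all 10 had log2 ratios above 0, and the median was 0.90. Without Phlda3, which passed the filter through the brequinar library alone, 4 of 9 were higher and the median was 0.69. Of all measured genes 6.45% were at least 2-fold higher, and 4.81% of those with at least 1 CPM in the vehicle library. Phlda3, a PH-domain protein that competes with Akt for membrane lipid, had 18 counts in the vehicle and 522 in the brequinar library, or 0.364 and 11.2 CPM. It was 30.9-fold higher (interval 19.4 to 52.5), the highest ratio of any member and rank 12 of all measured genes. Trp53inp1, a nuclear stress protein that promotes p53 phosphorylation and autophagy, stood at 12.04 and 53.9 CPM, 4.47-fold higher (interval 4.09 to 4.90).

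The death receptors were low and higher in the brequinar library. Fas, the receptor of Fas ligand, stood at 5.86 and 20.6 CPM, 3.52-fold higher (interval 3.09 to 4.03). Tnfrsf10b, the mouse receptor of TRAIL, stood at 2.85 and 6.20 CPM, and its interval reached below 2-fold. Eda2r, a TNF receptor family member, had 1 count in the vehicle and 19 in the brequinar library, a ratio of 20.2 with an interval from 3.22 to 841. It stayed under the filter.

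On the mitochondrial side, Bax was past 2-fold and the genes around it were not. Bax, the pore-forming effector, stood at 63.7 and 149 CPM, 2.35-fold higher (interval 2.25 to 2.45). Per kilobase it was in place 2 of the members in both libraries. Bbc3 and Pmaip1 encode the BH3-only proteins Puma and Noxa. Bbc3 stood at 7.01 and 10.7 CPM, and Pmaip1 stood at 61.0 and 79.6 CPM. Apaf1, the scaffold of the apoptosome, stood at 151 and 193 CPM. Aen, an apoptosis-enhancing nuclease, stood at 43.5 and 66.4 CPM, and Ei24, a protein of the endoplasmic reticulum membrane, at 86.2 and 139 CPM. Perp, a membrane protein of cell death and of desmosomes, went the other way at a very low level, with 32 counts in the vehicle and 8 in the brequinar library, and stayed under the filter.

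**Figure D3:**
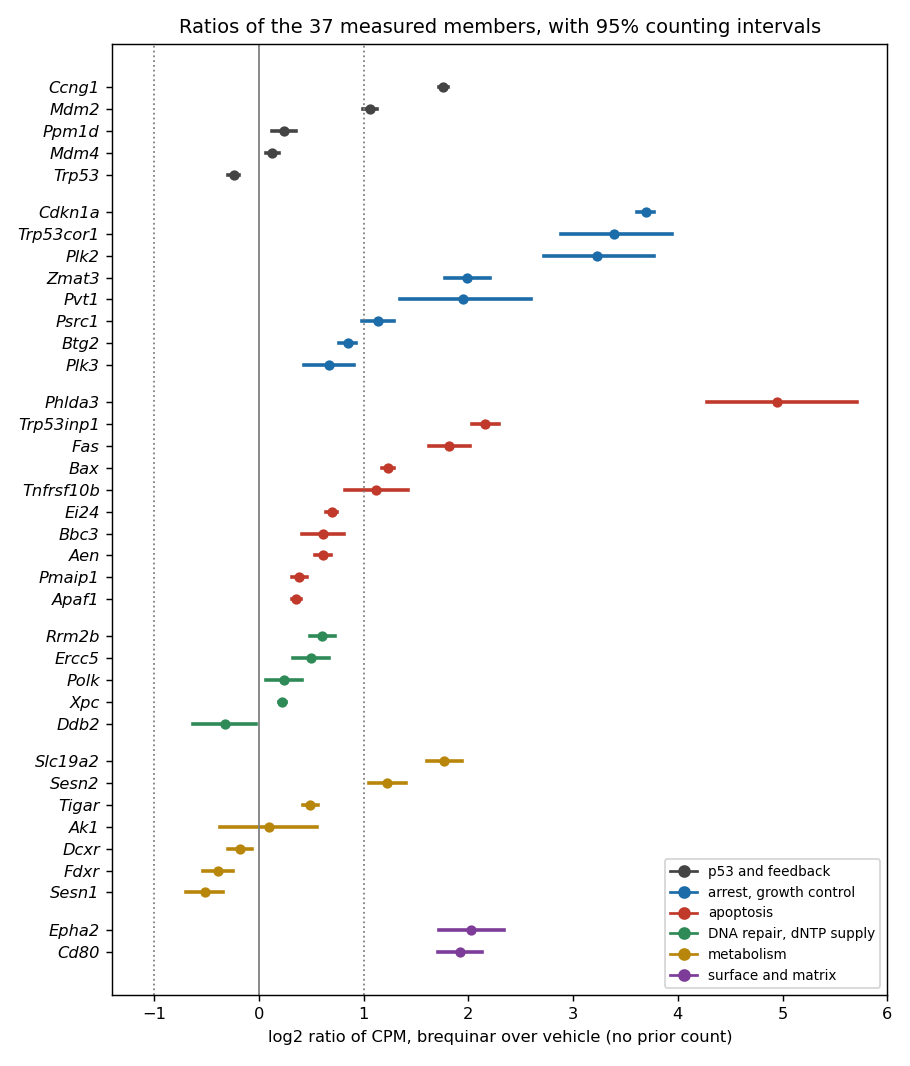
Log2 ratio of CPM, brequinar over vehicle and without a prior count, for the 37 measured members by arm; bars are exact 95% counting intervals from 1 library per group, and dotted lines mark 2-fold. The arrest and death arms reach up to Cdkn1a (12.9-fold) and Phlda3 (30.9-fold). No repair gene reaches 2-fold, and of all measured genes 6.45% were at least 2-fold higher.

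DNA repair and deoxynucleotide supply genes showed no member past 2-fold. Among all measured genes 6.45% were at least 2-fold higher and 4.40% at least 2-fold lower, so none of 5 is near those shares. The 5 members had log2 ratios from -0.32 to 0.60, with a median of 0.24. Xpc, the damage sensor of global nucleotide excision repair, was the most abundant member per kilobase in the vehicle library and stood at 274 and 319 CPM. Ddb2, which recognises ultraviolet lesions and hands them to Xpc, stood at 4.41 and 3.51 CPM, 1.26-fold lower (interval 1.02 to 1.55). Its exons share 652 bases with Acp2 on the opposite strand, which had 2888 and 1849 counts against 218 and 163 for Ddb2, and whether the counting used strand is not stated. Ercc5, the endonuclease of the same repair route, had 495 and 654 counts and was 1.41-fold higher (interval 1.25 to 1.58). Polk, a polymerase that copies past lesions, stood at 10.7 and 12.7 CPM, 1.18-fold higher (interval 1.05 to 1.33). Rrm2b, the p53-inducible subunit of ribonucleotide reductase, which makes deoxynucleotides outside S phase, had the highest ratio of the arm. It stood at 19.9 and 30.2 CPM, 1.52-fold higher (interval 1.40 to 1.65).

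Metabolic targets went in both directions. Of 7 members 2 were at least 2-fold higher, 4 had log2 ratios above 0 and 3 below it, and the median was 0.09. At least 2-fold higher were 6.45% of all measured genes, and 50.1% had log2 ratios above 0. Slc19a2, a thiamine transporter, stood at 8.10 and 27.6 CPM, 3.41-fold higher (interval 3.04 to 3.82). The sestrins Sesn1 and Sesn2 both restrain the growth kinase complex mTORC1, and they differed in direction. Sesn2 stood at 7.52 and 17.6 CPM, 2.34-fold higher (interval 2.06 to 2.65). Sesn1 stood at 14.1 and 9.84 CPM, 1.43-fold lower (interval 1.27 to 1.62), the lowest ratio of all measured members. Per kilobase, Sesn2 was 0.611 times Sesn1 in the vehicle library and 2.05 times Sesn1 in the brequinar library. Sesn2 is also a target of Atf4.

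The other metabolic members lay within 2-fold. Tigar, a phosphatase that lowers glycolytic flux, stood at 54.8 and 77.0 CPM, 1.40-fold higher (interval 1.33 to 1.48). Fdxr, the mitochondrial ferredoxin reductase, stood at 20.1 and 15.3 CPM. Dcxr, a dicarbonyl and xylulose reductase, stood at 26.2 and 23.1 CPM, and its sign turned with a correction for transcript length and GC content. Ak1, an adenylate kinase, had 81 counts in each library, so its sign depends on the scaling.

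The surface and matrix members were low and higher in the brequinar library. Cd80, a costimulatory ligand for T cells, stood at 4.89 and 18.5 CPM, 3.78-fold higher (interval 3.27 to 4.38). Epha2, an ephrin receptor kinase, stood at 2.22 and 9.02 CPM, 4.06-fold higher (interval 3.28 to 5.05). Sulf2, an extracellular sulfatase, had 22 and 58 counts and stayed under the filter. Its exons share 154 bases with the abundant gene Ncoa3 on the opposite strand.

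The arms were set side by side, counting only members of at least 1 CPM in the vehicle library. Past 2-fold were 3 of 5 in arrest and growth control, 4 of 9 in cell death and 2 of 5 in feedback. Metabolism had 2 of 7, repair 0 of 5 and the surface arm 2 of 2. Among the 11248 measured genes with at least 1 CPM in the vehicle library, 4.81% were at least 2-fold higher. Repair and metabolism were also joined, a grouping that was not planned and was made with the values of the arms known. Together these 2 arms had 2 of 12 past 2-fold and a median log2 ratio of 0.23. The other arms had 11 of 21 and a median of 1.06 on this count, and 15 of 25 and a median of 1.13 with the 4 members that passed the filter through the brequinar library alone. Differences between arms were not tested, since each group holds 1 library and the members are not replicates.

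Genes that act on p53 mostly lay within 2-fold. Of 20 measured upstream regulators out of 22, Cdkn2a was the 1 that was at least 2-fold higher, and none was at least 2-fold lower (median log2 ratio 0.06). These shares are near the 6.45% and 4.40% of all measured genes. Cdkn2a, whose locus encodes both p19Arf, an inhibitor of Mdm2, and p16Ink4a, stood at 4.89 and 11.8 CPM, 2.42-fold higher (interval 2.08 to 2.83). Gene counts do not separate its 2 products. Of the 20 measured upstream regulators 11 had log2 ratios above 0 and 9 below it, and 50.1% of all measured genes were above 0. Genes of damage signalling went in both directions. Prkdc, the catalytic subunit of DNA-PK, stood at 50.8 and 28.7 CPM, and Trp53bp1, a scaffold at double-strand breaks, at 44.7 and 26.6 CPM. Atm, the main kinase of double-strand breaks, stood at 37.2 and 26.7 CPM, and Atr, the kinase of stalled forks, at 53.4 and 41.7 CPM. Higher in the brequinar library were Chek1, the partner of Atr, at 42.2 and 54.1 CPM, and Chek2 at 40.1 and 48.5 CPM. The upstream genes Rchy1 (34.6 and 54.5 CPM) and Cop1 (66.8 and 94.3 CPM) were higher as well. Rpl5 and Rpl11, ribosomal proteins that bind Mdm2 when ribosome assembly fails, had 1610.3 and 1004 CPM (Rpl5) and 1027 and 691 CPM (Rpl11), with many processed pseudogenes that make these levels uncertain. The p53 relatives Trp63 and Trp73 had 0 counts in the vehicle library and 0 and 1 in the brequinar library.

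A second list held genes often named as p53 targets, none of them among the 41. Of 18 measured out of 23, Thbs1 and Lif were at least 2-fold higher and none was at least 2-fold lower, with a median log2 ratio of 0.23. Among all measured genes 6.45% were at least 2-fold higher, and Lif passed the filter through the brequinar library alone. Thbs1, which encodes the matrix protein thrombospondin 1, stood at 2.95 and 34.3 CPM, 11.6-fold higher (interval 9.81 to 13.9). Lif, a cytokine of the interleukin 6 family, stood at 0.748 and 2.02 CPM. Gadd45a, a growth arrest and damage gene, stood at 16.4 and 32.8 CPM, a log2 ratio of 0.99 and just under the threshold.

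Cell cycle genes that p53 represses through p21 and the DREAM complex were not lower. All 18 listed genes had log2 ratios above 0, from 0.21 to 0.86, with a median of 0.59 and none past 2-fold, and 50.1% of all measured genes were above 0. Aurka, a mitotic kinase, stood at 90.1 and 164 CPM. Plk1, another mitotic kinase, stood at 73.5 and 129 CPM, and Ccna2, which encodes cyclin A2, at 174 and 294 CPM. Cdkn1a and these genes both had higher values in the brequinar library.

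Markers of maturation and of other cells also differed between the libraries. For comparison, 6.45% of all measured genes were at least 2-fold higher and 4.40% at least 2-fold lower. All 11 markers of maturing neutrophils passed 2-fold on the higher side, summing to 1434 and 23751 CPM, with S100a9 and S100a8 the most abundant. Of 11 macrophage markers 8 were at least 2-fold higher among the 10 measured, summing to 597 and 780.4 CPM, most of it from Vcam1 and Adgre1, which lay within 2-fold. Of the 8 higher macrophage markers, 6 stood under 1 CPM in the vehicle library and passed the filter through the brequinar library alone. The 9 macrophage markers other than Vcam1 and Adgre1, set apart after their values were seen, summed to 6.45 and 59.05 CPM. Of 10 erythroid markers all 9 measured were at least 2-fold higher, summing to 80.2 and 274 CPM, with Hbb-bs and Hbb-bt the most abundant, and 3 of the 9 passed the filter through the brequinar library alone. Of 5 megakaryocyte markers the 2 measured, Gp9 and Itga2b, were at least 2-fold higher, summing over the list to 2.69 and 8.16 CPM, and Ppbp and Gp1ba had 0 counts in the vehicle library. B cell markers summed to 31.5 and 17.7 CPM, with 1 of 4 measured higher and 1 lower, and Cd79b and Cd79a were the most abundant. None of the 7 T and NK cell markers was measured (1.0105 and 2.992 CPM in sum, Cd4 and Cd3d the highest), nor any of 7 stromal and endothelial markers (2.36 and 3.04 CPM in sum, Cxcl12 and Col1a1 the highest). Of 10 leukaemia and progenitor markers, Mpo, Cd34 and Kit were at least 2-fold lower and Itgam was at least 2-fold higher, and Mpo and Elane were the most abundant, while Hoxa9 stood at 238 and 231 CPM. The part of these cell markers in the p53 values was not tested.

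**Figure D4:**
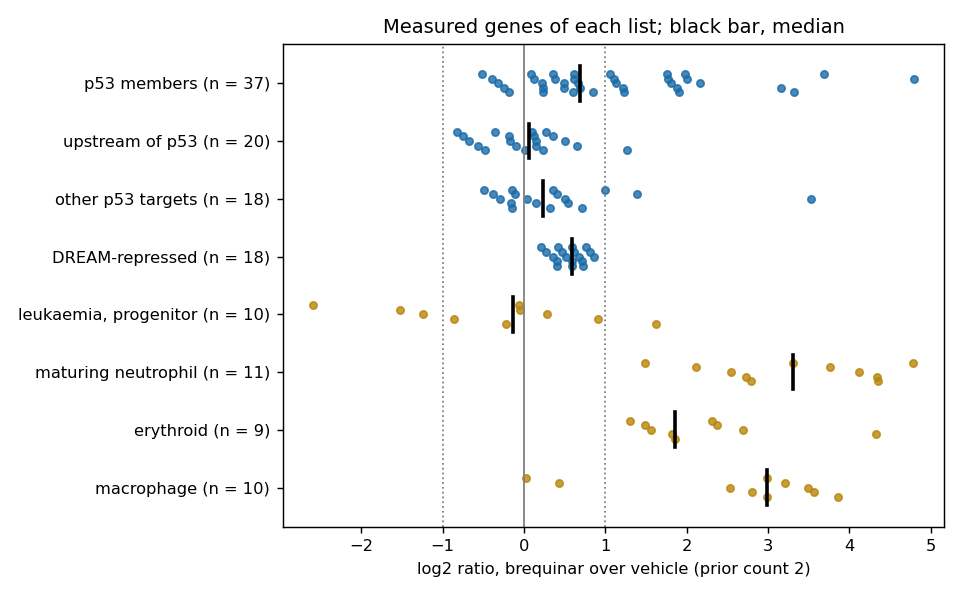
Log2 ratio of brequinar over vehicle for the measured genes of 4 p53 lists (blue) and 4 marker lists (ochre), 1 point per gene, with a black bar at each median. The p53 members have a median of 0.69, the upstream regulators 0.06, the other targets 0.23 and the DREAM-repressed genes 0.59, while the maturing neutrophil markers have a median of 3.31.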

How the data were processed

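Gene expression was measured in 2 libraries of sorted mouse leukaemia cells. The authors deposited whole-number read counts per gene. Per the labels' protocols, libraries were poly(A)-selected and strand-preserving, with paired reads of 101 bases. Per the submitters' processing notes, mm10 was the build, and STAR 2.4.2a and Picard (1.99, 2.2.4) were used. Which program counted reads, with what strand setting and annotation, is not given in the sources used here. Another 4 closing lines that name no gene held 21.6% and 20.2% of all reads in the vehicle and brequinar libraries and were left out.

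Columns were matched to samples by name. Symbols, coordinates and exon lengths came from GENCODE mouse release 21 (GRCm38, which mm10 also names), by identifier without version, for 44585 of 45318 identifiers. Library sizes were adjusted by TMM (edgeR 4.0.16 in R 4.3.3; factors 1.03 and 0.969). Log2 ratios used a prior count of 2, a filter at a mean of 1 CPM and a 2-fold rule, since 1 library per group allows no test. Intervals of ratios are exact (Clopper-Pearson, 95%), conditional on the summed count (scipy 1.17.1). The floor for a count of 0 was 3 counts. The calculation was tested on simulated counts that held counting error alone, so that test does not bear on spread between animals. Members, arms and lists were chosen with earlier results of these data known. All 41 members are named, with intervals for Trp53, Mdm2, Cdkn1a and up to 4 members per arm of largest absolute log2 ratio. From each other p53 list, genes past 2-fold are named or, failing that, the 3 largest, and from each marker list the 2 most abundant and any at 0. Pathway and marker genes named beyond this, such as Prkdc, Atm, Gadd45a and Hoxa9, were chosen after their values were seen. As alternatives, the scaling (total counts, upper quartile, size factors of DESeq2 1.42.0) was varied, as were filters, prior counts and thresholds, and the mean and a lowess correction (span 0.3) for transcript length and GC content were tried.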

Additional observations from a re-analysis of the deposited data

How the results depend on the processing

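Against TMM, scaling by total counts shifted every log2 ratio by -0.09, which took Mdm2 below 2-fold. Over 6 scalings, prior counts and corrections, 222 log2 ratios of measured members were recomputed. The signs of Ak1 (total counts) and Dcxr (length and GC correction) turned. None of the members past 2-fold changed sign, which shifts of this size could hardly bring about. Beyond their counting interval moved 21 ratios, and Mdm2 with total counts was the 1 call that changed. The number of members at least 2-fold higher ranged from 13 to 20 over the alternatives that kept the 2-fold rule. Among all measured genes, 662 of 11511 were at least 2-fold higher with total counts. With DESeq2 size factors 736 of 11504 were, and with the upper quartile 715 of 11505. The 1.5-fold rule gave 23 higher members and the 4-fold rule left 6. Shares of all measured genes at 1.5-fold and 4-fold are not given here. Counts under these rules, also those by list below, therefore cannot be read against all genes. Without the filter 1 member (Perp) was lower. Leaving out Ddb2 and Sulf2, whose exons overlap better counted genes, was an alternative chosen after seeing the data. It could not change the count of 17, since neither was among the higher members. The median of 0.69 was 0.60 with total counts, 1.11 as a mean, and 0.61 without the 4 members under 1 CPM in the vehicle library, an alternative also chosen after seeing the data. That alternative left 3 higher in arrest and 1 among the other targets.

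By arm, the 4-fold rule left 0 of feedback, 3 of arrest, 2 of cell death, 0 of metabolism and 1 of the surface genes. The 1.5-fold rule gave 8 of cell death and 1 of repair. Feedback had 1 with total counts and 1 when the whole interval had to lie beyond 2-fold, and arrest had 3 among members of at least 5 CPM. For the other pathway lists, alternatives were chosen after seeing the data. Upstream genes had 2 higher and 3 lower at 1.5-fold and 0 higher at 4-fold. Other targets had 4 higher and 1 lower without a filter, 4 higher at 1.5-fold, and 1 higher at a mean of 5 CPM, at 4-fold and by the whole interval. Of the DREAM-repressed genes 10 were higher at 1.5-fold. No paired analysis was possible because each treatment has 1 library. Depth limits Gdf15, Eda2r and Perp, which had few counts in both libraries. Spread between animals was not measured.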
